A study of Mus musculus with 24 samples.

Results

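Among the 142639 open chromatin regions on chromosomes 1 to 19 that were measurable in bone marrow-derived macrophages (BMDMs), 923 differed between AhR-KO and wildtype (WT) cells in opposite directions without and with lipopolysaccharide (LPS). In 382 of them, called the first order here, accessibility was higher in AhR-KO cells without LPS and lower with LPS. In the other 541, the second order, accessibility was lower in AhR-KO cells without LPS and higher with LPS. These 923 regions were selected on the measured values themselves: the AhR-KO/WT ratio of group means had to be at least 1.4 in one treatment and at most the inverse of 1.4 in the other, and the highest of the 4 group means had to reach 1 CPM (counts scaled to the library total). The genotype ratios below therefore describe the choice and carry no test.

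Accessibility was measured by ATAC-seq, in which a transposase cuts and tags DNA that is not covered by nucleosomes. The 24 libraries came from cells of both genotypes, left unstimulated or given LPS, with 6 libraries in each of the 4 groups. AhR-KO cells came from B6.129-Ahr tm1Bra mice, which lack a working Ahr gene in every tissue, and WT cells from C57/B6/J mice. The study used adult, age- and sex-matched mice of both sexes and describes 6 animals a group from 1 experiment. Whether the same animals gave unstimulated and LPS cultures is not given in the sources used here, so p-values measure the spread between these libraries. Marrow of all groups was grown with GM-CSF at 10 ng/ml and TGF-β at 2 ng/ml, factors that push the culture towards alveolar-like macrophages. LPS was given at 97 EU/ml on day 6 for 24 h, followed by a calcium ionophore, A23187, at 5 µM for 10 min. The labels attach the whole treatment text to each library, so whether the unstimulated cultures also received the ionophore is not given in the sources used here. Library totals over all consensus peaks lay between 8.54 M and 34.6 M fragments (M, mega), so 1 CPM stood for 8.54 to 34.6 fragments in a library. Depth moved with treatment in WT, from 8.54 to 23.1 M without LPS against 25.1 to 34.6 M with LPS, and less so in AhR-KO (18.9 to 25.7 against 22.4 to 28.5 M), and its part in the results was not tested.

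AhR, the aryl hydrocarbon receptor, is a ligand-activated transcription factor that binds DNA together with its partner ARNT and is best known for switching on enzymes that break down foreign compounds. LPS is a bacterial cell wall component sensed by the receptor TLR4, which activates NF-kB, AP-1 and interferon regulatory factors and opens many enhancers, the distal DNA elements that control genes. A region that responds to LPS can therefore start closed and open, or start open and close, and the genotype difference can be read on either side of that change.

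The sequences of 7 of the regions show what they look like. Those next to Rnf144a and Rras2 had the largest reversals of the first order, and those next to Muc16 and Hacd4 the largest of the second order, among regions on the chromosomes searched whose central 300 bases overlapped no untranslated region and held a match to 1 of 12 motifs searched. Those next to Fcnb, Ly86 and Rsad2 were chosen after their values were seen, because results below turn on them. Each is the 300-base window at the centre of the peak on the forward strand of GRCm38.p6, the assembly behind mm10, and capitals mark the motif matches.
Rnf144a, chr12:26256916-26257215, 1 NF-kB match: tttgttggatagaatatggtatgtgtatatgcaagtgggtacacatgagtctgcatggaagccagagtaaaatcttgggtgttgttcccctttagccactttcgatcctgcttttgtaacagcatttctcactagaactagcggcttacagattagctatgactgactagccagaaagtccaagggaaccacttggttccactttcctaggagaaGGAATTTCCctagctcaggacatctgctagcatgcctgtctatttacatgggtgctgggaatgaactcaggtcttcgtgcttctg
Rras2, chr7:114171633-114171932, 1 STAT match: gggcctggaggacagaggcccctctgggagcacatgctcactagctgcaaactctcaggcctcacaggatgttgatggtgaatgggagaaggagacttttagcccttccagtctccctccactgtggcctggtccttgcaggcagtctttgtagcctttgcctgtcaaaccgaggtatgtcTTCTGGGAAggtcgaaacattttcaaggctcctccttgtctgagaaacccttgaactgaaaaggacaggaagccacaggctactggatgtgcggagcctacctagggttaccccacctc
Muc16, chr9:18646375-18646674, 2 RUNX matches: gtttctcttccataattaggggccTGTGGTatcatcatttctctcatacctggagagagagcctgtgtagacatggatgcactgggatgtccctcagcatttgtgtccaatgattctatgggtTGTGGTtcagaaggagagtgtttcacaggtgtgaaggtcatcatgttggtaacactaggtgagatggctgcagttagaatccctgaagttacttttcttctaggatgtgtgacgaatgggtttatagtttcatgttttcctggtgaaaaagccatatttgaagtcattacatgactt
Hacd4, chr4:88478066-88478365, 1 NF-kB and 1 E-box match: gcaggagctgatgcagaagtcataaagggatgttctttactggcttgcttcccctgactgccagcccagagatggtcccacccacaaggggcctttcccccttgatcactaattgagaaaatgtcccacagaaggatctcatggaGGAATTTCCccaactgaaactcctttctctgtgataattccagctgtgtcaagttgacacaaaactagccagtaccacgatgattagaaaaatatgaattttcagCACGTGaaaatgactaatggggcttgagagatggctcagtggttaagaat
Fcnb, chr2:28092112-28092411, 1 C/EBP and 1 RUNX match: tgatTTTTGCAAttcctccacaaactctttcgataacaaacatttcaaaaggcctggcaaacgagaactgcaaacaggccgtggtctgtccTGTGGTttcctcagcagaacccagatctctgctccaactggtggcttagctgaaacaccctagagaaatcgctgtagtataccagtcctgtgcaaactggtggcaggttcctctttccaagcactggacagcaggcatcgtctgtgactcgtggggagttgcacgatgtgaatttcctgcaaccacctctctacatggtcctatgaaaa
Ly86, chr13:37431230-37431529, 1 AhR-ARNT core and 1 RUNX match: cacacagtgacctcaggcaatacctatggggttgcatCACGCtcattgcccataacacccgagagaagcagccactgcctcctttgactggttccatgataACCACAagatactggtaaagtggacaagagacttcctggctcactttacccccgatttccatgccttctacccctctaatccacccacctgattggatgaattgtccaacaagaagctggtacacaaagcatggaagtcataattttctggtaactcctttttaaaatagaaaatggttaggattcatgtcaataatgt
Rsad2, chr12:26441924-26442223, 1 AP-1 match: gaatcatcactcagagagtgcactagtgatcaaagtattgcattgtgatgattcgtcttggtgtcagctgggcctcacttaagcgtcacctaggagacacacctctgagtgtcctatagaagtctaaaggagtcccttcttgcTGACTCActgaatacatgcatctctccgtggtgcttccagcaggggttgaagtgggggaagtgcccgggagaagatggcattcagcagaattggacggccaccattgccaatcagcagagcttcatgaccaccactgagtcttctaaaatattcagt
Rnf144a and Hacd4 share the same NF-kB letters, GGAATTTCC, although they belong to opposite orders. Of these windows Rsad2 alone holds a match to AP-1, the motif that was most frequent in the second order, and Muc16, Hacd4 and Ly86 of the same order hold none. Repeat sequence covered 85.6% of the Hacd4 peak.

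The members were modest in level. The median of the highest group mean was 2.08 CPM in the first order and 1.95 CPM in the second, against 3.99 CPM over all eligible regions, and the highest of all was 119 CPM in the first order and 31.3 CPM in the second. The highest group was WT LPS for 220 and AhR-KO unstimulated for 162 members of the first order. In the second order it was AhR-KO LPS for 500 and WT unstimulated for 41. Median log2 ratios were 0.65 without and -0.69 with LPS in the first order, and -0.64 without and 0.77 with LPS in the second. Only 7 members of the first order and 11 of the second reached a ratio of 2 on both sides.

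**Figure D1:**
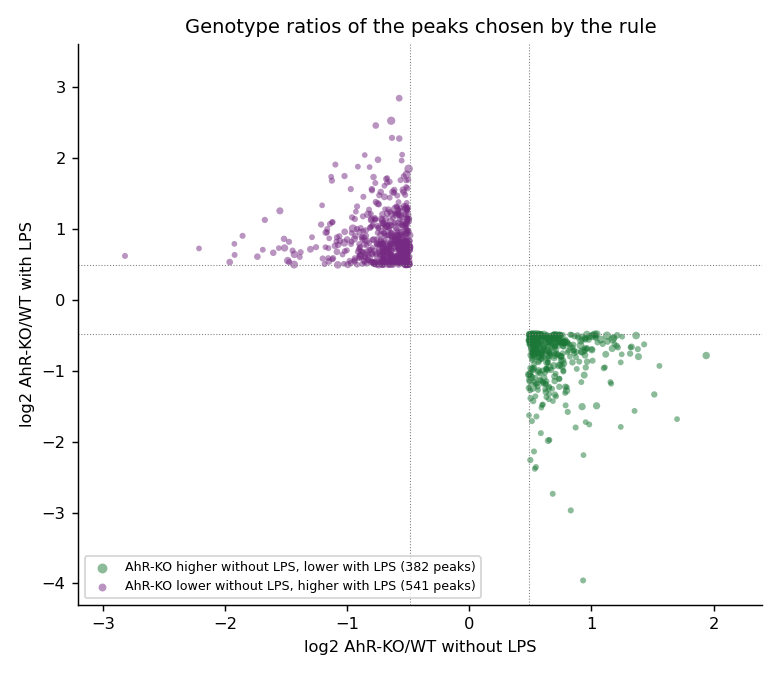
Each point is 1 of the 923 chosen regions, with the log2 AhR-KO/WT ratio of group means without LPS on the horizontal axis and with LPS on the vertical axis (6 libraries a group), larger points for higher levels and dotted lines at a ratio of 1.4 either way. The empty centre is set by the rule, and most points sit close to its edges, with 7 of 382 and 11 of 541 beyond a ratio of 2 on both sides.

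The threshold cut through a continuous distribution. The last members inside it in the first order lay next to Gusb (chr5:129983018-129983365, ratios 1.4 and 0.422) and Proser2 (chr2:6096299-6096817, 2.06 and 0.714), and the nearest regions outside lay next to Cyp1b1 (chr17:79746085-79746515, 1.4 and 0.597) and Ddhd1 (chr14:45715364-45716179, 1.57 and 0.714). In the second order a region just inside lay next to Lrguk (chr6:33917142-33917777, 0.616 and 1.4). The nearest outside lay next to Etv1 (chr12:38363842-38364622, 0.714 and 1.43) and Syt7 (chr19:10365441-10365656, 0.0807 and 1.4). Each pair of ratios gives the value without LPS first.

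Few members showed both sides of the reversal clear of the spread between libraries. The 6 AhR-KO and 6 WT libraries did not overlap in 111 members of the first order without LPS and in 76 with LPS, and in 61 and 229 members of the second order. Over all eligible regions the genotypes were apart in 24.3% without LPS and in 21.9% with LPS. They were apart on both sides in opposite directions in 30 members of the first order and 27 of the second, a pattern shown by 210 regions, or 0.147% of all eligible ones, since such regions need not reach the ratio of 1.4. Without WT LPS replicate 3 the count in the first order was 51. Left out one at a time, none of the 24 libraries removed 136 of the 382 and 160 of the 541 members from the choice. Where the lowest of the 4 group means was also required to reach 1 CPM, 130 and 69 members were left.

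The low side of the second order rested on few reads. A median of 107 fragments summed over the 12 unstimulated libraries lay behind the ratio without LPS in the second order, 289 in the first and 613 over all eligible regions. With LPS the medians were 480, 484 and 943 fragments. In 475 members of the second order no AhR-KO unstimulated library had a broad peak called by the authors at that place, or 87.8% against 24.2% of the eligible regions. No WT unstimulated library had one in 408 members, or 75.4% against 22.8%. In 220, or 40.7% against 53.9%, all 6 AhR-KO LPS libraries had one.

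**Figure D2:**
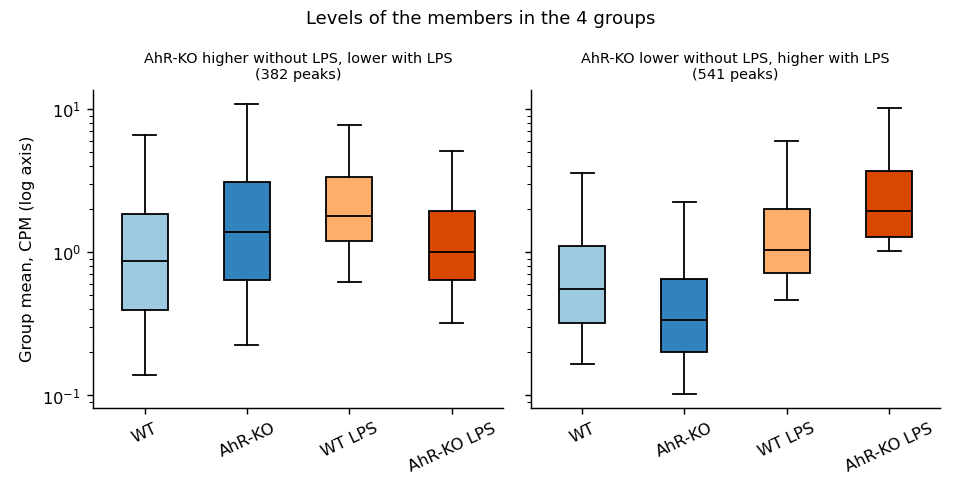
Boxes show the group means in CPM (log axis) of the 382 members of the first order and the 541 of the second, with the median, the quartiles and whiskers from the 5th to the 95th percentile over members. In the second order both unstimulated medians, 0.550 CPM in WT and 0.336 CPM in AhR-KO, lie below both LPS medians, 1.04 and 1.93 CPM.

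Most members of the second order were more accessible with LPS, which the choice partly fixes. Averaged over both genotypes, 462 of 540 tested members of the second order were called more accessible with LPS and 17 less accessible (edgeR quasi-likelihood test, adjusted p at most 0.05 and fold change at least 1.5). In the first order 168 of 382 were more and 105 less accessible. The same test called 27.1% of all eligible regions more and 21.9% less accessible, and 26.8% and 21.9% of all 174193 regions tested. In percent, calls of higher accessibility came to 85.6 in the second order and 44.0 in the first, and of lower accessibility to 3.15 and 27.5. Median log2 effects were 1.84 and 0.33, against 0.01 over the eligible regions.

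The rule asked for 1 CPM in the highest group only, so a region below 1 CPM in both groups of a treatment entered through the other treatment. In the second order 389 of 541 members lay below 1 CPM in both unstimulated groups, or 71.9% against 14.8% of the eligible regions. Of the 388 tested, 97.9% were called higher with LPS, and so were 87.8% of all eligible regions below that level. In the first order 127 members lay below 1 CPM in both unstimulated groups and 46 in both LPS groups. These counts are therefore a description of the choice, and for a member below 1 CPM in both groups of a treatment the LPS effect is given below with no p. With a mean of at least 1 CPM over the 4 groups, a condition set after the values were seen, 225 of 269 members of the second order were called higher and 6 lower. In the first order 78 of 237 were called higher and 72 lower, and of the eligible regions 24.3% and 20.8%. The highest group weighs most in such a mean, so a member can still pass through it. These counts too describe the choice.

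Regions whose genotype ratio passed 1.4 the same way without and with LPS gave a comparison. Of the 11539 that were higher in AhR-KO both times, 48.0% were called higher and 19.5% lower with LPS, and of the 15230 that were lower both times, 23.7% and 35.6%. The share called higher was larger in the second order than in either, a difference that was not tested. Among members whose 4 group means all reached 1 CPM, 42 of 69 in the second order were called higher and 3 lower. In the first order the balance turned under this condition, with 24 of 130 called higher and 51 lower. The eligible regions at that level had 16.8% called higher and 19% lower.

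**Figure D3:**
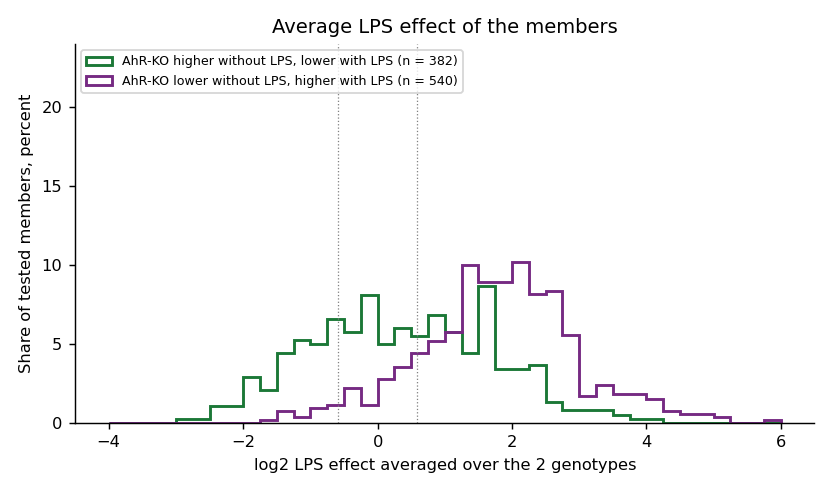
Histograms in steps of 0.25 show the share of tested members, in percent, by the log2 LPS effect averaged over both genotypes, for the first order (n = 382) and the second (n = 540), with values beyond the axis placed in the end bins and dotted lines at a fold change of 1.5 either way. The second order centres on 1.84 and the first on 0.33.

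Taken by genotype, the members took several routes, which the rule partly fixes and which are given as a description. In the second order 381 of 541 members went up at least 1.4-fold in mean CPM with LPS in both genotypes, 113 did so in AhR-KO cells with less than 1.4-fold change in WT, and 19 went down in WT and up in AhR-KO. In the first order 107 went up in both genotypes, 51 went down in both, 87 went up in WT with less than 1.4-fold change in AhR-KO, 88 went down in AhR-KO with less than 1.4-fold change in WT, and 49 went up in WT and down in AhR-KO. Median log2 LPS effects were 1.13 in WT and -0.43 in AhR-KO cells for the first order, and 1.01 and 2.66 for the second.

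The gene lists held members of both orders. Of 4716 eligible regions within 100 kb of the transcription start site (TSS) of a gene in 12 lists of macrophage, LPS and AhR biology, 26 belonged to the second order, or 0.551%, and 11 to the first, or 0.233%, against 0.334% and 0.281% of all eligible regions within 100 kb of a TSS. The 26 lay nearest to 22 genes, and 24 of them were called more accessible with LPS on average and 0 less, beside 85.6% of the whole second order and 27.1% of the eligible regions called higher. Only 5 of the 26 had all 4 means at 1 CPM. By list, the second order held from 0 regions of the AhR and the phagocytosis lists to 5 of the list of interferon, IRF, STAT and SOCS genes, and the shares of the TLR and NF-kB list (0.201%) and the TGF-β and GM-CSF list (0.184%) lay below that of all regions near a TSS. No list was tested. The 11 of the first order lay nearest to 11 genes, and 4 of them were called higher and 3 lower.

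Ptgs2 encodes cyclooxygenase-2, the inducible enzyme that starts prostaglandin synthesis, and it held 3 members of the second order inside or at the end of the gene. The largest (chr1:150108225-150109919) overlapped the last bases of the gene and reached 1692 bases past it. Its levels, given as lowest, median and highest of 6 libraries, were 1.10, 1.34 and 1.76 CPM in WT and 0.738, 0.927 and 1.48 CPM in AhR-KO cells without LPS, and 3.92, 4.54 and 5.94 CPM in WT and 9.30, 16.5 and 23 CPM in AhR-KO cells with LPS. All AhR-KO LPS libraries lay above all WT LPS libraries, while the unstimulated genotypes overlapped through 1 AhR-KO library. The ratio of means was 0.709 without and 3.58 with LPS, and the average LPS effect was 2.95 ± 0.13 (log2, SE; edgeR adjusted p = 1.9e-19). Without any 1 of 5 unstimulated libraries the first ratio missed the threshold, and repeat sequence covered 45.1% of the peak.

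The other Ptgs2 members lay in the gene. At chr1:150104042-150104525 the ranges were 0.751 to 1.08 CPM in WT and 0.316 to 0.750 CPM in AhR-KO without LPS, and 1.4 to 2.54 and 3.05 to 6.22 CPM with LPS. Here the genotypes were apart on both sides, with ratios of 0.594 and 2.55. At chr1:150106512-150107236 the ratios were 0.648 and 2.86, with overlap only without LPS. Over the 26 eligible regions nearest to Ptgs2 the median log2 ratio was -0.05 without and 0.55 with LPS, and 24 had a higher mean in AhR-KO cells with LPS. Of the other eicosanoid genes, Mgst2, a microsomal glutathione S-transferase that can form leukotriene C4, had 1 member of the second order, so that 4 of 410 regions of that list were in the second order and 0 in the first.

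Nos2 encodes the inducible nitric oxide synthase of activated macrophages, and the region inside it (chr11:78931008-78934011) had the largest ratio with LPS among the list members. Its lowest, median and highest values were 0.322, 0.524 and 1.29 CPM in WT and 0.266, 0.412 and 0.687 CPM in AhR-KO without LPS, and 1.55, 2.17 and 4.03 CPM in WT and 7.37, 13.9 and 19.7 CPM in AhR-KO with LPS. The LPS groups did not overlap, and the unstimulated groups did, all at low level. The ratios were 0.642 and 5.73, and the average LPS effect was 3.52 ± 0.24 (log2, SE).

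Other inflammatory effectors had the same order of group means, which the rule sets. At each of them the genotypes overlapped at low level without LPS. The region inside Acod1 (chr14:103052779-103053673), whose product makes itaconate, had means of 0.555 and 0.386 CPM without and 11.5 and 16.2 CPM with LPS in WT and AhR-KO, and its genotypes overlapped in both treatments. A region 33.5 kb from the TSS of Mmp13 (chr9:7238597-7238966), a collagenase, ranged from 1.99 to 3.35 CPM in WT and from 4.42 to 6.26 CPM in AhR-KO with LPS, with no overlap, and repeats covered 65.1% of it. Without LPS its ranges overlapped, at 0.234 to 0.773 CPM in WT and 0.264 to 0.406 CPM in AhR-KO. Dusp4, a phosphatase that switches off MAP kinases, had a region at chr8:34754036-34754307 with ratios of 0.359 and 1.76. Its means without LPS were 0.209 CPM in WT and 0.0750 CPM in AhR-KO, and its genotypes overlapped in both treatments. Of the 489 regions of this list of effectors 4 were in the second order and 0 in the first.

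Chemokine and growth factor genes followed. The region over the TSS of Ccl5 (chr11:83530335-83530833), a chemokine for T cells and monocytes, had lowest, median and highest values of 0.193, 0.312 and 0.433 CPM in WT and 0, 0.205 and 0.333 CPM in AhR-KO without LPS, and 3.35, 6.31 and 8.92 CPM in WT and 11.6, 13.1 and 14.9 CPM in AhR-KO with LPS. The LPS groups were apart and the unstimulated groups were both close to 0. The average LPS effect was 5.15 ± 0.18 (log2, SE), and the region was chosen through its LPS levels.

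Csf1 and Csf2, the genes of the macrophage and the granulocyte-macrophage growth factors, each had 1 member of the second order. The Csf1 region (chr3:107739512-107741011) had ratios of 0.648 and 1.72 and was apart with LPS, and the Csf2 region (chr11:54251366-54251947) had ratios of 0.648 and 1.4, with overlap in both treatments. Ccr2, the receptor that draws monocytes to CCL2, had a region at chr9:124099111-124099647 with ratios of 0.536 and 1.5 that was apart without LPS. A region 26.3 kb from the TSS of Nfkb1 (chr3:135717848-135719078), the gene of the NF-kB subunit p105/p50, ranged from 2.96 to 4.0 CPM in WT and from 1.79 to 2.73 CPM in AhR-KO without LPS. With LPS it ranged from 6.97 to 13.1 and from 10.5 to 16 CPM, so the genotypes were apart without LPS and overlapped with it. Jdp2, an AP-1 family repressor, had a region at chr12:85576762-85577061 with ratios of 0.531 and 3.66. Its means without LPS were 0.144 CPM in WT and 0.0764 CPM in AhR-KO, where the genotypes overlapped.

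The list of interferon, IRF, STAT and SOCS genes had 5 of 434 regions in the second order, or 1.15%, at 4 interferon-stimulated genes, and 1 in the first, at Irf8. At the shares of all regions near a TSS, 434 regions would hold 1.45 of the second order and 1.22 of the first, and the difference was not tested. The Ifit3 region (chr19:34588002-34592470), at the end of an antiviral gene, had the highest level of the second order. Its lowest, median and highest values were 4.60, 5.82 and 7.38 CPM in WT and 3.13, 3.82 and 4.49 CPM in AhR-KO without LPS, and 7.66, 13.1 and 17.6 CPM in WT and 15.2, 32 and 43.9 CPM in AhR-KO with LPS. The genotypes were apart without LPS, and with LPS 5 of 6 AhR-KO libraries lay above every WT library. The ratios were 0.658 and 2.41, and this member stayed in the choice without any single library.

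Rsad2 and Cmpk2 are neighbouring antiviral genes, and each had a region just past its 3′ end. Both regions lay within 20 Mb of Ahr on chromosome 12, a stretch taken up below. The Rsad2 region (chr12:26441532-26442616), whose centre is printed above, had lowest, median and highest values of 0.322, 0.604 and 1.05 CPM in WT and 0.208, 0.412 and 0.541 CPM in AhR-KO without LPS, and 3.85, 6.00 and 7.59 CPM in WT and 9.56, 12.8 and 14 CPM in AhR-KO with LPS. Only the LPS groups were apart. The Cmpk2 region (chr12:26480134-26481160) had ratios of 0.431 and 2.08 and was among the 10 largest reversals of its order.

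Oasl1 and Oasl2, members of the oligoadenylate synthetase family, held 2 members of the second order. That inside Oasl1 (chr5:114931546-114933729) had means of 0.817 and 0.573 CPM in WT and AhR-KO without LPS and 3.51 and 11.9 CPM with LPS, and that inside Oasl2 (chr5:114911581-114912032) 0.162 and 0.0508 CPM, then 1.04 and 2.26 CPM. Both were apart with LPS and overlapped without it. Oas2 (chr5:120752126-120752277) had ratios of 0.665 and 1.75. Outside the list, the TSS regions of Ifi213 (chr1:173598416-173600292), an interferon-inducible DNA sensor family gene, and Rnf213 (chr11:119477311-119478672), an interferon-inducible ubiquitin ligase, had ratios of 0.675 and 1.46, and of 0.600 and 1.59.

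**Figure D4:**
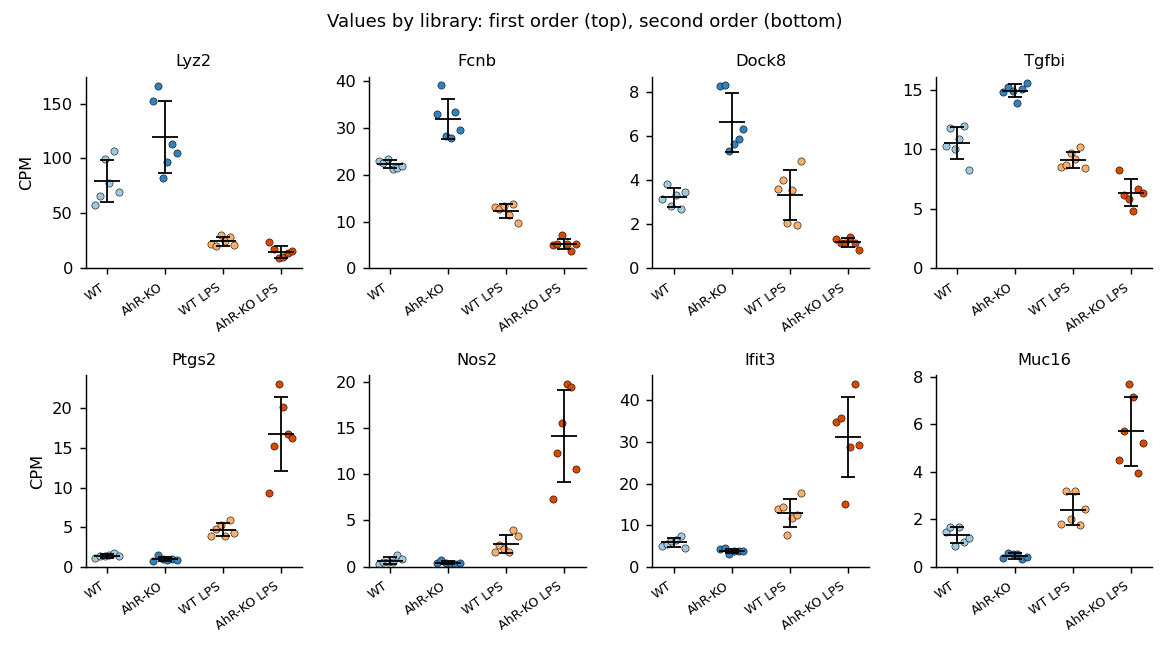
Points are the CPM of single libraries in the 4 groups of 6, with the mean and SD as bars, for regions of the first order at Lyz2, Fcnb, Dock8 and Tgfbi (top) and of the second order at Ptgs2, Nos2, Ifit3 and Muc16 (bottom). In the top row the 2 LPS groups lie below the AhR-KO unstimulated group, and in the bottom row AhR-KO LPS is the highest group, with a mean of 16.8 CPM at Ptgs2 and 31.3 CPM at Ifit3.

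Of the 10 largest reversals of the second order, 1 belonged to a gene list. It was the region inside Oasl2 given above, whose nearest TSS is that of Oasl1. At Muc16, a membrane mucin, the top region (chr9:18646130-18646920, printed above) had lowest, median and highest values of 0.884, 1.34 and 1.69 CPM in WT and 0.316, 0.473 and 0.581 CPM in AhR-KO without LPS, and 1.75, 2.23 and 3.18 CPM in WT and 3.94, 5.47 and 7.69 CPM in AhR-KO with LPS. The genotypes were apart on both sides. The ratios were 0.341 and 2.38 and the average LPS effect 2.23 ± 0.15 (log2, SE; edgeR adjusted p = 6.0e-16). The other 9 lay nearest to Hacd4, Mbl2, Oasl1, Cmpk2, Acap2, Mefv, Nmur2, Trpd52l3 and Tlr4, the last 275 kb from the TSS of the LPS receptor gene (chr4:67102901-67103252, ratios 0.457 and 3.32). All 10 stayed in the choice without any single library, which their distance from the threshold favours, beside 160 of all 541. Their highest means lay between 1.08 and 5.70 CPM. All 10 had a group mean below 1 CPM and were called more accessible with LPS, as were 85.6% of the second order.

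Some genes were nearest to several members of the second order. Cntnap5c, a contactin-associated protein gene, and Spry2, an inhibitor of receptor tyrosine kinase signalling, had 4 each, and Adgb, Basp1, Il7r, Pde4d, Ptgs2, Rbpj and Xylt1 had 3 each. Most of these genes had many eligible regions. Pde4d had 180, Xylt1 71, Basp1 64, Adgb 62, Rbpj 51, Il7r 34 and Ptgs2 26. At Cntnap5c all 13 eligible regions had a higher mean in AhR-KO cells with LPS and 5 a lower one without LPS. At Spry2, 47 of 59 had a lower mean without LPS and 31 a higher one with LPS. At Xylt1, a xylosyltransferase gene, the region at chr7:117084174-117084942 lay 296 kb from the TSS and went from means of 0.448 and 0.264 CPM in WT and AhR-KO without LPS to 0.678 and 3.71 CPM with LPS. Rbpj, the DNA-binding partner of Notch, had a region at chr5:53624553-53626006 whose genotypes were apart on both sides, with ratios of 0.677 and 1.61. Repeats covered 95.8% of 1 of the Il7r regions (chr15:9494744-9495754). Of the 29 members at these 9 genes 25 were called more and 1 less accessible with LPS on average, a share close to the 85.6% of the whole order, and 4 had all 4 means at 1 CPM.

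Within 100 kb of a same-order neighbour lay 114 members of the second order, or 21.1%, and 46 of the first, or 12%. The second order has more members, and no share was counted for equally many eligible regions. These shares are therefore not read as clustering. The 541 lay nearest to 484 genes and the 382 to 364 genes. Per chromosome, the second order held from 0.274% of eligible regions on chromosome 8 to 0.718% on chromosome 16, and the first from 0.123% on chromosome 14 to 0.453% on chromosome 19.

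Macrophage identity genes appeared in both orders. Of 851 regions in that list 6 were in the first order and 4 in the second. Cd36, a scavenger receptor for oxidised lipids, had 2 regions of the second order with means between 0.444 and 1.86 CPM, and 1 of them, at chr5:17847030-17847180, did not pass the test of the average LPS effect (log2 0.01 ± 0.13 SE, edgeR adjusted p = 0.96). Bach2, a transcriptional repressor, had ratios of 0.627 and 1.66 at chr4:32320074-32320335. Nr3c1, the glucocorticoid receptor gene, had 0.544 and 1.85 at chr18:39406630-39406981, and Rdh10, a retinol dehydrogenase gene, 0.667 and 2.11 at chr1:16182288-16182966. A region 44.0 kb from Smad1 (chr8:79443514-79444707), which relays BMP signals, was higher and apart on both sides, with ranges of 7.65 to 9.44 CPM in WT and 5.18 to 7.58 CPM in AhR-KO without LPS and of 4.54 to 5.98 and 6.30 to 8.08 CPM with LPS.

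Members of the first order with high levels were mostly less accessible with LPS, which the choice partly fixes. Of its 27 members with a highest mean of at least 10 CPM, 22 were called less and 2 more accessible with LPS on average, and 14 had genotypes apart on both sides. Of the 29 such members of the second order, 27 were called more and 0 less accessible, and 2 were apart on both sides. The level was read from the highest group, which was AhR-KO LPS for 500 of all 541 second-order members. In the first order that group was AhR-KO unstimulated for 162 and WT LPS for 220 of all 382 members. A first-order region that passes through a high AhR-KO unstimulated mean has a lower mean in AhR-KO LPS. Only 18 of the 29 had every group mean at 1 CPM or above, beside all 27 in the first order. The calls of both orders are therefore partly fixed by the choice and are given as a description. Of the 35328 eligible regions with a highest mean of at least 10 CPM, 18.8% were called more and 18.8% less accessible. In 0.391% of them the genotypes were apart on both sides in opposite directions, a pattern that the choice by opposite ratios favours.

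Lyz2, the lysozyme gene of macrophages and granulocytes, had the highest level of all members. The region (chr10:117274866-117278621) spanned the 3′ end of the gene and had lowest, median and highest values of 57.8, 73.7 and 107 CPM in WT and 82.6, 109 and 166 CPM in AhR-KO without LPS, and 20, 23.9 and 30.5 CPM in WT and 9.79, 15.1 and 24.4 CPM in AhR-KO with LPS. The genotypes overlapped in both treatments, with 5 of 6 AhR-KO LPS libraries below every WT LPS library. The ratios were 1.5 and 0.624, and accessibility fell with LPS on average by 2.32 ± 0.16 on the log2 scale (SE; edgeR adjusted p = 1.7e-11).

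Fcnb encodes ficolin-B, a lectin of myeloid cells that binds microbial sugars. The region 6.94 kb upstream of its TSS (chr2:28091825-28092699, centre printed above) had lowest, median and highest values of 21.4, 22.3 and 23.5 CPM in WT and 28, 31.3 and 39.1 CPM in AhR-KO without LPS, and 9.76, 12.9 and 13.8 CPM in WT and 3.70, 5.22 and 7.20 CPM in AhR-KO with LPS. The genotypes were apart on both sides, in opposite directions. The average LPS effect was -1.73 ± 0.07 (log2, SE; edgeR adjusted p = 1.9e-20).

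Dock8, a guanine nucleotide exchange factor needed for migration of immune cells, had 3 first-order members in its introns. The middle one (chr19:25036757-25037356) was among the 10 largest reversals, with lowest, median and highest values of 2.69, 3.25 and 3.81 CPM in WT and 5.33, 6.10 and 8.29 CPM in AhR-KO without LPS, and 1.95, 3.57 and 4.88 CPM in WT and 0.847, 1.16 and 1.44 CPM in AhR-KO with LPS. The genotypes were apart on both sides, and WT stayed near its level across LPS (means 3.21 and 3.34 CPM) while AhR-KO went from 6.61 to 1.18 CPM. The region at chr19:25002022-25003129 was stronger, with means of 17.2 and 24.4 CPM without and 10.4 and 6.87 CPM with LPS, and was also apart on both sides. Of the 25 eligible regions nearest to Dock8, 11 had a lower mean in AhR-KO without LPS and 3 a higher one with LPS.

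Other members of the first order lay at high levels or over a TSS. A region in an intron of Pfkfb4, 14.8 kb from the TSS of Shisa5 (chr9:109022815-109023737), had means of 25.2 and 35.9 CPM without and 17.1 and 11.4 CPM with LPS and was apart on both sides, with 40.5% of the peak in repeats. Of the 8 members of the first order over a TSS, 4 were called less and 2 more accessible with LPS, where 7.56% and 4.14% of the eligible TSS regions were. The genotypes, whose ratio chose the members, were apart without LPS in 6 and with LPS in 2, against 30.1% and 14.7% of eligible TSS regions. Tgfbi, a matrix protein gene named for its induction by TGF-β, was the 1 apart on both sides (chr13:56609269-56609833, ratios 1.42 and 0.699). The others were Cercam (chr2:29868881-29870526, ratios 1.47 and 0.6252), Bmyc, a relative of Myc (chr2:25706541-25708363, 1.53 and 0.693), Slc27a3, an acyl-CoA synthetase gene (chr3:90389138-90390708, 1.62 and 0.685), Pitpnm2 (chr5:124249148-124250256, 1.43 and 0.713), Clasp1, a microtubule tip protein gene (chr1:118481357-118482863, 1.57 and 0.693), Tff1 and the olfactory receptor gene Olfr640 (chr7:104021602-104022462, 2.00 and 0.612). TSS regions made up 2.09% of the first order and 1.66% of the second, against 9.0% of the eligible regions. They were also 2.92% of the regions lower and 0.979% of those higher in AhR-KO in both treatments.

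Transcription factor genes of the macrophage lineage had weaker members. The region inside Irf8 (chr8:120747905-120748051), a factor that drives monocyte and dendritic cell fates, ranged from 0.515 to 1.11 CPM in WT and from 1.15 to 2.80 CPM in AhR-KO without LPS, and from 0.318 to 0.642 and from 0.161 to 0.492 CPM with LPS. Its genotypes were apart only without LPS, and the average LPS effect was -1.67 ± 0.18 (log2, SE), with both LPS means below 1 CPM. Near Klf2, a factor of quiescent immune cells (chr8:72343814-72344483, in an intron of Eps15l1), the ratios were 2.70 and 0.645, and the average LPS effect was 0.02 ± 0.17 (log2, SE; edgeR adjusted p = 0.93).

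The rest of the list members of the first order had ratios between 1.41 and 1.84 without and between 0.440 and 0.712 with LPS. Fabp5, a fatty acid-binding protein gene (chr3:10040791-10041176), was called higher with LPS, as were Abcg1, a cholesterol exporter gene, Egr2 and Smad3, all 4 with both unstimulated means below 1 CPM. Runx3, with both LPS means below 1 CPM, was called lower, a call that was lost without WT unstimulated replicate 6 (log2 -0.58) or AhR-KO LPS replicate 5 (log2 -0.56). Rxra, the retinoid X receptor gene, Smad2 and Car4, a carbonic anhydrase gene used as an alveolar macrophage marker, did not meet both thresholds, with log2 effects of 0.13, -0.17 and -0.57. Repeat sequence covered 97.7% of the Smad2 peak. All these regions had highest means between 1.13 and 2.51 CPM.

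The largest reversals of the first order had mostly low levels. The top one (chr12:26256940-26257192) lay 158 kb from the TSS of Rnf144a, a ubiquitin ligase gene, with means of 0.0993 and 0.323 CPM without and 1.18 and 0.368 CPM with LPS, and its genotypes overlapped in both treatments. It lay within 20 Mb of Ahr, a stretch taken up below. The region 53.8 kb from Rras2, a Ras family GTPase gene (chr7:114171610-114171957), ranged from 0.117 to 0.442 CPM in WT and from 0.542 to 0.951 CPM in AhR-KO without LPS, and from 0.694 to 2.07 and from 0.359 to 0.671 CPM with LPS, apart on both sides. So was the region 38.3 kb from Cops8 (chr1:90641235-90641582, ratios 2.36 and 0.288). Others of the 10 lay nearest to Gdpd5, Myrip, Nrde2, Ntmt1, Tlk1 and Dock8. Without any single library 9 of the 10 stayed in the choice, which their distance from the threshold favours, beside 136 of all 382.

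At 11 genes both orders met. At Ly86, whose protein MD-1 pairs with the TLR4 homologue RP105, a first-order region (chr13:37439909-37441303) and a second-order region (chr13:37430982-37431778) lay 8.13 kb apart, both with genotypes apart on both sides. The first had means of 10.5 and 16.3 CPM without and 5.01 and 3.45 CPM with LPS in WT and AhR-KO, and the second 1.56 and 0.942 CPM, then 2.13 and 3.32 CPM. The average LPS effects were -1.66 ± 0.07 and 1.13 ± 0.11 (log2, SE; edgeR adjusted p = 2.3e-22 and 1.1e-11).

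At Cxxc5, a zinc finger protein gene, the pair lay 21.3 kb apart. The second-order region (chr18:35854342-35854876) had means of 4.16 and 1.69 CPM without and 2.76 and 4.51 CPM with LPS and was apart on both sides, and the first-order region (chr18:35876178-35876917) had 1.34 and 3.35 CPM, then 3.49 and 2.20 CPM, apart without LPS only. At Fyn, a Src family kinase gene, the intronic second-order region (chr10:39430334-39431489) went from 3.77 and 1.95 CPM to 7.35 and 14.7 CPM, with the LPS groups apart. The first-order region 52.2 kb away (chr10:39483699-39485155) went from 2.22 and 3.33 CPM to 2.84 and 2.02 CPM. Klf4, a factor of monocyte differentiation, had 1 second-order region 37.6 kb from its TSS and 2 first-order regions at 154 and 410 kb.

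No member lay near the AhR target genes listed, where few would be counted at the general share. Of 191 eligible regions within 100 kb of the TSS of 17 genes in the list of the AhR pathway and its targets, 0 were members of either order, where the shares of all regions near a TSS would give 0.537 of the first and 0.638 of the second, although a region near Cyp1b1, an AhR target gene, lay just outside the threshold as given above. Phagocytosis and antigen presentation genes also had 0 members among 217 regions, against 0.610 and 0.725 at those shares. TLR and NF-kB signalling genes had 1 of 497 in the second order, and TGF-β and GM-CSF signalling genes 2 of 543 in the first and 1 in the second. Within 20 Mb of Ahr on chromosome 12, where DNA of the strain in which the allele was made can remain in knockout mice, lay 3 members of the first order and 11 of the second, or 0.785% and 2.03%, against 1.32% of eligible regions, and the part of strain DNA in these was not tested. One of the 3, in an intron of Hdac9 (chr12:34822175-34822812, nearest TSS Prps1l1), had means of 1.91 and 7.31 CPM without and 7.61 and 4.41 CPM with LPS, apart on both sides. The Rnf144a region was another of the 3, and the Rsad2 and Cmpk2 regions were among the 11.

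Beyond the values that chose them, the members were narrower than the eligible regions, with median widths of 485 bases in the first order and 464 in the second against 673. Introns held 47.9% of the first order and 39.4% of the second against 41.8%, and 40.3% and 52.3% were intergenic against 41.0%. The median distance to a TSS was 23.8 kb in the first order and 40.1 kb in the second against 23.6 kb. The median GC content was 47.7% and 44.6% against 46.7%. Regions changed in the same direction in both treatments were also narrower, with medians of 543 bases for those lower and 560 for those higher in AhR-KO.

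Motif letters were searched on both strands of the central 300 bases, and a match is a description of letters, not of binding. TGANTCA, the AP-1 motif, was in 37.9% of second-order windows (exact 95% interval 33.8 to 42.1), in 17.8% of first-order windows (14.1 to 22) and in 18% of eligible windows. Regions higher in AhR-KO in both treatments had it in 25.4% and those lower in both in 14.1%. Among regions called more accessible with LPS on average, the share was 42.2% of 462 in the second order, 29.2% of 168 in the first and 35.2% of all eligible ones. With the same call it was 37.1% of regions higher in AhR-KO in both treatments and 24.4% of those lower in both. The difference between these shares was not tested. The intervals cover counting error only.

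**Figure D5:**
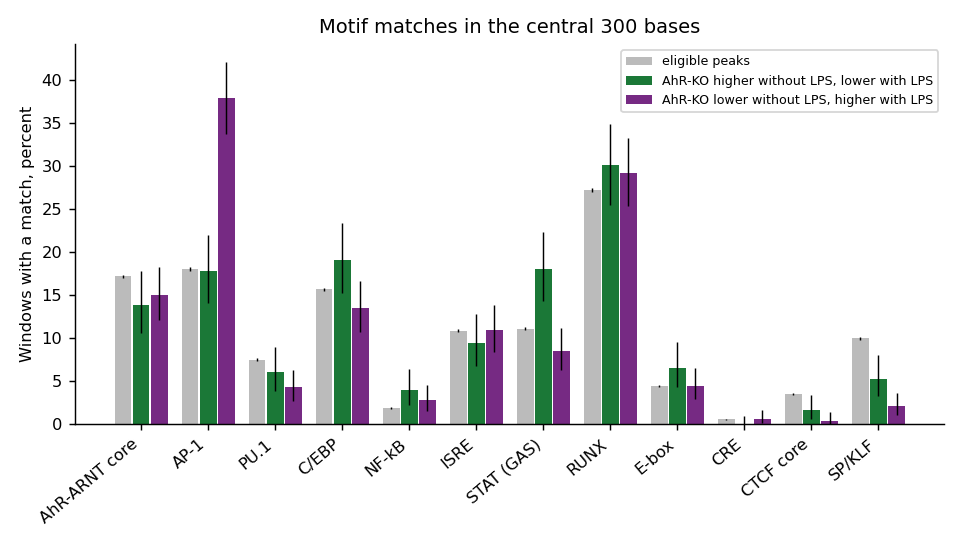
Bars give the percent of central 300-base windows with at least 1 match to each of 12 motifs on either strand, for the 142639 eligible regions, the 382 members of the first order and the 541 of the second, with exact 95% binomial intervals as lines. Among the sets drawn, AP-1 is highest in the second order at 37.9%, and the STAT motif in the first at 18.1%. Of all eligible regions called more accessible with LPS, 35.2% had the AP-1 motif.

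TTCNNNGAA, the STAT motif, was in 18.1% of first-order windows (14.3 to 22.3), 8.50% of second-order windows (6.29 to 11.2) and 11.1% of eligible windows. GGANTTTCC, an NF-kB motif, was in 3.93%, 2.77% and 1.86%, with intervals of 2.21 to 6.39 and 1.56 to 4.53 for the 2 orders. GCGTG, the AhR-ARNT core, was in 13.9%, 15% and 17.2%, so that neither order held it more often than the eligible regions. GGGCGG (SP/KLF), letters common in promoters, was in 5.24%, 2.03% and 9.98%, and AGNNGGCGC (CTCF core), of the insulator factor, in 1.57%, 0.370% and 3.46%. Regions lower and higher in AhR-KO in both treatments were also below the eligible share, with SP/KLF in 4.92% and 5.48% and CTCF in 1.06% and 0.815%. They had the NF-kB motif in 2.65% and 1.44%, the STAT motif in 13.5% and 12.9% and the AhR-ARNT core in 14.9% and 12.8%.

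The remaining motifs are given in the same way. TTGCNNAA (C/EBP) was in 19.1% of the first order, 13.5% of the second and 15.7% of eligible windows, TGTGGT (RUNX) in 30.1%, 29.2% and 27.2%, and GAGGAAGT (PU.1) in 6.02%, 4.25% and 7.49%. For PU.1 the exact 95% interval of the second order, 2.71 to 6.31, lay below the eligible share. GAAANNGAA (ISRE) was in 9.42%, 10.9% and 10.9%, CACGTG (E-box) in 6.54%, 4.44% and 4.39%, and TGACGTCA (CRE) in 0%, 0.555% and 0.513%. For CRE the first order had 0 of 382 windows (exact 95% interval 0 to 0.961), and 3 counts of that total would be 0.785%. Letters of different motifs can overlap in a window, and each motif was counted on its own.

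Macrophage marker genes were accessible in every library, and so were several dendritic cell markers. Of 10 macrophage marker genes 9 had a region over the TSS that was called in all 24 libraries, Spi1 being the exception with no region over an annotated TSS. A region over a TSS was seen for 2 of 10 T cell, 3 of 10 B cell, 3 of 10 mast cell or basophil, 6 of 10 neutrophil and 8 of 10 dendritic cell markers. In the same order of cell types, 2, 2, 3, 2 and 6 markers had such a region called in all 24 libraries. None of the marker TSS regions was a member. The summed CPM of the macrophage marker regions ranged from 204 to 238 in WT and 234 to 323 in AhR-KO without LPS, and from 197 to 230 and 189 to 269 with LPS. Those of the dendritic cell markers ranged from 231 to 260 in WT and 182 to 213 in AhR-KO without LPS, and from 217 to 232 and 165 to 177 with LPS, lower in AhR-KO both times, whereas the macrophage ranges of the genotypes overlapped in both treatments. Those of neutrophil markers ranged from 38.5 to 53.7 and 38.5 to 42.8 without, and from 40.4 to 58.9 and 47.3 to 55.8 with LPS. Those of mast cell and basophil markers ranged from 21 to 26.5 and 14.4 to 17.2 without, and from 28 to 35.5 and 19.6 to 24.8 with LPS. They too were lower in AhR-KO both times, with no overlap. The T cell receptor genes Cd3e, Cd3d and Cd3g, the neutrophil genes Ly6g, Mpo and Elane and the mast cell genes Cpa3 and Fcer1a had no region over a TSS. Other markers of these cells had one, namely Tcf7 and Cd5 of the T cell list and Kit, Gata2 and Hdc of the mast cell list. In the neutrophil list S100a8, S100a9, Camp, Ltf, Cxcr2 and Ngp had one. A change in the mix of cells and a change of accessibility within cells cannot be told apart in bulk libraries, and the part of the marker levels in the reversals was not tested.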

How the data were processed

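ATAC-seq was done on 24 BMDM libraries, 6 a group. The authors processed the reads with the nf-core atacseq pipeline on mm10, called broad peaks per library with MACS2, merged them into 184158 consensus peaks and counted fragments per peak with featureCounts 2.0.1 (at least 0.2 of a fragment inside the peak). The deposited table holds raw counts per peak and library, and 0 of its count columns lacked a sample. The deposited broad peak files hold −log10 q values, and these files were used for whether a peak was called in a library. Peak starts are printed 1-based.

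CPM was taken of column totals and averaged over 6 libraries. The average LPS effect was fitted over all 24 libraries with edgeR 4.0.16 (TMM, filterByExpr, quasi-likelihood F test, Benjamini-Hochberg adjustment over 174193 regions, R 4.3.3). The fit used 1 term per group, and the effect is the mean of the LPS effects in WT and AhR-KO, to which the genotypes contribute equally. Genes, motifs and repeats came from the GRCm38.p6 reference, with the nearest TSS of a protein-coding gene as the gene of a region. Scripts were tested on simulated data. DESeq2 1.42.0 was an alternative.

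The regions and gene lists were chosen with earlier results of these data known. Some regions that these rules name are not reported here. Regions named are, per order, the 10 largest reversals (by the smaller of the 2 log2 ratios), those over a TSS, up to 15 in the gene lists within 100 kb, genes with 3 or more, and 2 just inside and 2 just outside the threshold. The remaining list genes, the 3 highest levels, regions apart on both sides, regions at genes with both orders and the Hdac9 region were added after their values were seen. Alternatives were other library totals, group medians, other thresholds, no filter, DESeq2, the replicate number as a block and each library left out. The requirements of 1 CPM in the lowest group and over the mean of the groups and the alternatives for group separation were chosen after seeing the data.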

Additional observations from a re-analysis of the deposited data

Results flagged for a closer look

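Of 500 groups of 6 libraries tested over the named regions, 31 held a library far from the other 5, by the ratio of its gap to the group's range, where chance gives about 1 in 20. AhR-KO LPS replicate 3 was the library in 6 of them. Values are in CPM, each against the median of the other 5 libraries of its group.

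In AhR-KO LPS replicate 3 they were 4.52 CPM against 1.93 at Cyp1b1, 2.73 CPM against 0.797 at Etv1, 2.46 CPM against 1.37 at Egr2, 2.24 CPM against 1.0 at Tlk1, 8.81 CPM against 5.75 at Camk2a and 1.12 CPM against 1.72 at Lrguk. In WT LPS replicate 6 they were 0.902 CPM against 0.534 at Il7r (start 9606461), 2.47 CPM against 1.91 at Ptgs2 (start 150106512), 5.35 CPM against 3.92 at Rbpj (start 53645053) and 1.2 CPM against 0.575 at Xylt1 (start 117084174). In AhR-KO unstimulated replicate 3 they were 7.71 CPM against 4.16 at Clasp1, 1.67 CPM against 0.917 at Gdpd5 and 0.0881 CPM against 0.250 at Mbl2. In WT unstimulated replicate 5 they were 0.703 CPM against 0.346 at Basp1 (start 25449170), 1.17 CPM against 0.580 at Cd36 (start 17806904) and 4.10 CPM against 6.35 at Fhad1. In AhR-KO unstimulated replicate 1 they were 0.311 CPM against 0.0451 at Syt7 and 0.700 CPM against 0.208 at Xylt1 (start 117084174). In WT LPS replicate 1 they were 3.95 CPM against 5.26 at Bmyc and 3.27 CPM against 4.26 at Pitpnm2. In AhR-KO unstimulated replicate 4 they were 13.9 CPM against 16.6 at Ly86 (start 37439909) and 1.33 CPM against 0.739 at Spry2 (start 105935430). In AhR-KO unstimulated replicate 6 they were 9.21 CPM against 7.07 at Proser2 and 0.667 CPM against 1.27 at Cd36 (start 17847030). In WT unstimulated replicate 1 it was 0.0644 CPM against 0.324 at Cops8. In AhR-KO LPS replicate 2 it was 1.36 CPM against 1.05 at Il7r (start 9606461). In AhR-KO unstimulated replicate 5 it was 0.406 CPM against 0.272 at Mmp13. In AhR-KO LPS replicate 5 it was 3.54 CPM against 1.90 at Oasl1 (start 114911581). In WT LPS replicate 3 it was 1.19 CPM against 0.777 at Pde4d (start 108693169). In AhR-KO unstimulated replicate 2 it was 1.48 CPM against 0.885 at Ptgs2 (start 150108225). In WT LPS replicate 2 it was 2.59 CPM against 3.41 at Rbpj (start 53624553).

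In 57 of the 923 regions the 6 AhR-KO libraries lay beyond all 6 WT libraries in 1 direction without LPS and in the other with LPS, 30 in the first order and 27 in the second. The choice by opposite ratios fixes the direction of these, and the difference between treatments was not tested. On chromosome X, which was outside the choice, 18 regions met the same conditions, 8 in the first order and 10 in the second, or 0.472% of 3813 eligible regions against 0.647% on the autosomes.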

How the results depend on the processing

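The number of chosen regions followed the thresholds. A ratio of 1.3 gave 837 in the first order and 1211 in the second, a ratio of 1.5 gave 186 and 259, and a ratio of 2 gave 7 and 11. A highest mean of at least 0.5 CPM gave 566 and 941, of at least 2 CPM 199 and 262, and a lowest mean of at least 1 CPM, added after seeing the data, 130 and 69, and a mean of the 4 group means of at least 1 CPM, added likewise, 237 and 269. TMM totals gave 362 and 568 (345 and 523 shared with the reported regions), RLE size factors 438 and 453 (323 and 394 shared), and group medians 429 and 657 (255 and 375 shared). Leaving out 1 library gave 330 to 440 in the first order and 493 to 632 in the second.

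The average LPS calls moved little with the tool. RLE, no filter, DESeq2 and the replicate block gave 168 to 169 regions called higher and 105 lower in the first order, and 458 to 463 higher and 17 lower in the second. Leaving out 1 library gave 167 to 174 and 103 to 107, then 458 to 465 and 16 to 17. A fold change of at least 2 left 66 called lower in the first order and 7 in the second. With a lowest mean of at least 1 CPM, which leaves fewer regions, 24 were called higher and 51 lower in the first order, and 42 and 3 in the second, and with a mean of the 4 groups of at least 1 CPM 78 and 72, then 225 and 6. Genotypes apart on both sides in opposite directions came to 30 to 51 regions of the first order and 27 to 34 of the second without 1 library, the 51 being without WT LPS replicate 3. TMM totals gave 23 and 24 and RLE size factors 26 and 18.

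Same-numbered libraries correlated in their deviations by 0.037 to 0.290 in WT (5 of 6 above 0.1) and 0.0038 to 0.171 in AhR-KO (2 of 6). In WT 4 and in AhR-KO 3 of 6 unstimulated libraries correlated best with their own number, more than if every number were equally likely. Whether equal numbers mark shared animals or batches is not given, and the main fit did not take them as pairs. With the replicate block 169 regions were called higher and 105 lower in the first order, and 462 and 17 in the second.

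Among 123 single regions 9 changed a call or a sign in any of 28 alternatives, 5 of them with log2 effects near 0 throughout. Adgb (start 10332239) was -0.0019 with RLE, -0.00057 with DESeq2 and -0.045 to 0.074 without 1 library. Cd36 (start 17847030) was -0.0091 with RLE, -0.010 with DESeq2, -0.00035 with the replicate block and -0.055 to 0.063 without 1 library. Without 1 library 3425401B19Rik (start 32683027) was -0.069 to 0.059, Klf2 (start 72343814) -0.063 to 0.13 and Myrip (start 120308138) -0.083 to 0.078. Runx3 and the Hdac9 region lost their calls without 1 library, and Car4 and Cops8 gained one. The cause was not tested.

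Ratios without LPS in the second order rest on few fragments (median 107 over 12 libraries). Motif shares over whole peaks were higher, at 51.6% for AP-1 in the second order and 30.1% in the first. With genes limited to regions in the gene or within 5 kb of its TSS, the lists kept 14 of 26 second-order regions (0.595% against 0.303% of all such regions) and 5 of 11 first-order regions. The interferon list kept 3 of 5 and the macrophage identity list 1 of 6 in the first order, and the TLR, AP-1, TGF-β and nuclear receptor lists kept 0 of 1, 0 of 1, 0 of 1 and 0 of 2 in the second.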

Other observations

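Regions that overlapped the 3′ end of the nearest gene or lay up to 5 kb past it were counted after the values of Lyz2, Ifit3, Ptgs2 and Rsad2 had been seen. They made up 24 of 382 regions in the first order, or 6.28%, 20 of 541 in the second, or 3.70%, and 3.53% of the eligible regions. Among regions with a highest mean of at least 10 CPM they were 3 of 27 in the first order and 5 of 29 in the second, or 11.1% and 17.2%, against 3.12% of the eligible regions at that level. Ptgs2, Ifit3, Rsad2 and Lyz2, induced or highly used genes of macrophages, each had such a region. Because these were picked after their values were seen, no test was made.

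Other strong or clearly separated regions lay outside the lists. Near Mroh2b (chr15:4836194-4837036), 62.1 kb from its TSS, the second-order region had means of 2.85 and 1.97 CPM in WT and AhR-KO without LPS and 11.7 and 17.8 CPM with LPS, apart with LPS only. Near Nol11 (chr11:107253796-107254535) the first-order region had ratios of 2.01 and 0.550, apart on both sides. In the second order, Hlcs (chr16:94235596-94236090, ratios 0.443 and 1.92), Fam184a (chr10:53645992-53646268, 0.511 and 2.94) and Mfsd9 (chr1:40792300-40792542, 0.276 and 1.86) were apart on both sides. The average LPS effect at Mfsd9 was -0.48 ± 0.16 (log2, SE), short of the fold change threshold.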
